A study of Homo sapiens with 16 samples.

Results

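The genes described here are 40 genes of the MYC network and of ribosome biogenesis, taken from the count table by symbol. All 40 had an entry among the 57500 genes of the table, and all 40 were among the 15566 genes with enough counts to be tested. By role they were 6 transcription factor genes of the MYC network, 32 ribosome biogenesis genes and 2 polyamine synthesis genes that MYC is known to activate. The ribosome biogenesis genes comprised 3 of the box C/D and 3 of the box H/ACA small nucleolar ribonucleoproteins (snoRNPs), 6 abundant nucleolar proteins and GTPases, 10 factors of large-subunit (60S) assembly, 7 of small-subunit (40S) assembly and 3 RNA polymerase I subunits.

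Polyadenylated RNA was sequenced from MDA-MB-231, a human triple-negative breast cancer line that grows with a mesenchymal shape. There were 4 groups of 4 libraries: cells with the AKAP2 hairpin given doxycycline, the same cells without it, cells with a scrambled hairpin given doxycycline, and these without it. The groups are called shAKAP2 or shScramble, with or without doxycycline. Every group carries a hairpin construct, doxycycline switches its promoter on, and AKAP2 encodes a scaffold that anchors protein kinase A. The 4 libraries of a group are called biological replicates, without a word on separate cultures, and every p-value refers to the spread among them, which may be technical. Neither the dose and time of doxycycline nor whether a line is a clone or a pool is given in the sources used here.

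Total counts per library lay between 24482997 and 37472525. The targeted gene followed the labels: summed over 4 libraries, AKAP2 had 4 counts in shAKAP2 cells with doxycycline and 168 without it, against 212 in shScramble cells with doxycycline and 144 without it. Of 7 markers of the line, VIM, CD44, AXL, CAV1, MSN and EGFR were high, with EGFR lowest of these (group means 180 to 238 CPM). The other, SPARC, was low at 1.44 to 3.37 CPM. Of 7 epithelial or luminal markers, KRT8 (group means 530 to 723 CPM) and KRT18 (342 to 396 CPM) were also high and EPCAM and GATA3 lay between 11.3 and 20.5 CPM, while CDH1 was under 1 CPM, ESR1 had 1 count in all 16 libraries and PGR 12. Both shScramble replicate 1 libraries, with and without doxycycline, stood apart from the other 14, as described for the member genes below. Values are given as CPM, counts scaled to the TMM-adjusted library size. A gene was called higher or lower when its adjusted p in edgeR's quasi-likelihood test, corrected by Benjamini-Hochberg over all 15566 genes, was under 0.05. In bulk RNA, fewer cells of a type and less RNA per cell cannot be told apart.

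As background, MYC is a transcription factor that binds DNA as a dimer with MAX, most often at the E-box, the motif CACGTG. MXD1, MXD4 and MXI1 compete for MAX and repress the same sites, and MLXIP (MondoA) is a glucose-responsive relative in the same network. Ribosome biogenesis is a classic MYC programme: RNA polymerase I transcribes the ribosomal RNA precursor in the nucleolus, snoRNPs modify it, and separate sets of assembly factors build the 2 subunits. In cancer cells the programme is known to track growth, and ODC1, which makes the polyamine putrescine, is among the best known MYC targets.

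Because the E-box is where MYC and MAX bind, promoter windows of the members were searched for CACGTG, which reads the same on both strands. The windows come from RefSeq (GRCh38.p14) and run from 250 bases before to 50 after each gene start; 34 of the 40 members had 1 or more. The motif stood in the promoter of 15 of these 34 genes (44.1%), against 1318 of 10667 tested genes with a window (12.4%). Counted by promoter, it stood in 15 of 44 member windows (34.1%), in 9.16% of the 15551 windows of tested genes and in 7.26% of all 35116 windows. A match describes the letters and is not a shown binding site. By role it was present in 5 of 6 windows of 40S assembly factors and in 0 of 4 windows of RNA polymerase I subunits. The sites below are shown because their genes are the 4 members with the motif that changed with doxycycline in shAKAP2 cells, followed by the other polyamine gene and 2 genes of 40S assembly. Each is written 5′ to 3′ on the gene's strand with the E-box in capitals.
ODC1, upstream site: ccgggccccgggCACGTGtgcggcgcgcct
ODC1, downstream site: ggcctgcggagaCACGTGgtcgccgagcgg
FBL: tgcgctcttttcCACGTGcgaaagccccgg
RRP9: gggttcagctgcCACGTGagttctgcggcc
GNL3: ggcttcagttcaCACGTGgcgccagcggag
SRM: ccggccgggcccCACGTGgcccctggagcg
UTP20: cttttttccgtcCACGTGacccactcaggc
BYSL: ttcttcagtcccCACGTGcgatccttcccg

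ODC1 was the only member with 2 E-boxes in a window, at chr2:10448024-10448053 and chr2:10447990-10448019 on the minus strand; the first begins 29 bases before the gene start. Those of FBL (chr19:39846356-39846385, minus strand), RRP9 (chr3:51941892-51941921, minus) and GNL3 (chr3:52686026-52686055, plus) lie within a few bases of the start. SRM has its E-box further upstream (chr1:11060200-11060229, minus), UTP20 just before the start (chr12:101280083-101280112, plus) and BYSL after it (chr6:41921515-41921544, plus). The median changes with and without the motif had no common order across comparisons. With doxycycline in shAKAP2 cells the 15 members with it had a median log2 change of 0.014 and the 19 without it 0.099, and between the lines with doxycycline the medians were 0.32 and 0.35. Between the untreated lines they were 0.22 with the motif and 0.18 without it, for doxycycline in shScramble cells -0.042 and -0.05, and for the difference between the doxycycline effects 0.089 and 0.18.

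Per kilobase of exon, NPM1 had the highest level of the 40 genes at 570.3 CPM per kb over all libraries, followed by NCL (158), FBL (115) and ODC1 (105). These encode nucleophosmin and nucleolin, which fill the nucleolus, the rRNA methyltransferase fibrillarin and ornithine decarboxylase. MYC was 13th at 39.4 CPM per kb. The network's other factors were lower, with MAX at 18.4 and MXD1 last of the 40 at 1.41 CPM per kb. The lengths are those of all annotated exons of a gene merged, so the order depends on the annotation. NPM1 has 45 named pseudogenes, and their part in its count was not tested.

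MYC itself did not change detectably when the AKAP2 hairpin was induced. Its level was 144.5, 134.2, 125.6 and 121.5 CPM in shAKAP2 cells with doxycycline, against 146.7, 139.5, 132.7 and 132.7 CPM without it. The groups overlapped, and the log2 difference was -0.07 (SE 0.072, adjusted p = 0.52). In shScramble cells MYC had 100.5, 92.4, 94.3 and 107.4 CPM with doxycycline, against 110.5, 113.6, 99.8 and 98.3 CPM without it. Those groups overlapped as well (log2 -0.10, SE 0.073, adjusted p = 0.769). The lines, however, were separate: each of the 8 shAKAP2 libraries, between 121.5 and 146.7 CPM, lay above each of the 8 shScramble libraries, between 92.4 and 113.6 CPM. MYC was higher in shAKAP2 than in shScramble cells with doxycycline (log2 0.41, SE 0.073, adjusted p = 0.000127) and without it (log2 0.39, SE 0.073, adjusted p = 0.00127). This line difference was present before induction, and the test of whether doxycycline acted differently on MYC in the 2 lines did not pass (log2 0.028, SE 0.102, adjusted p = 0.894). The hairpin and any other difference between the lines cannot be told apart here.

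MAX, the obligate partner of MYC, rose modestly with doxycycline in shAKAP2 cells. Its level was 89.0, 88.2, 87.2 and 94.4 CPM with doxycycline, against 75.7, 74.0, 79.4 and 75.3 CPM without it. The groups did not overlap, and the increase was 1.18-fold (log2 0.24, SE 0.058, adjusted p = 0.00371). In shScramble cells MAX had 83.3, 80.8, 79.4 and 84.0 CPM with doxycycline, against 82.6, 75.5, 77.0 and 80.0 CPM without it, overlapping groups with a log2 difference of 0.056 short of the threshold (adjusted p = 0.863). Tested against each other, the 2 effects on MAX did not pass either (log2 0.18, SE 0.081, adjusted p = 0.136).

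**Figure D1:**
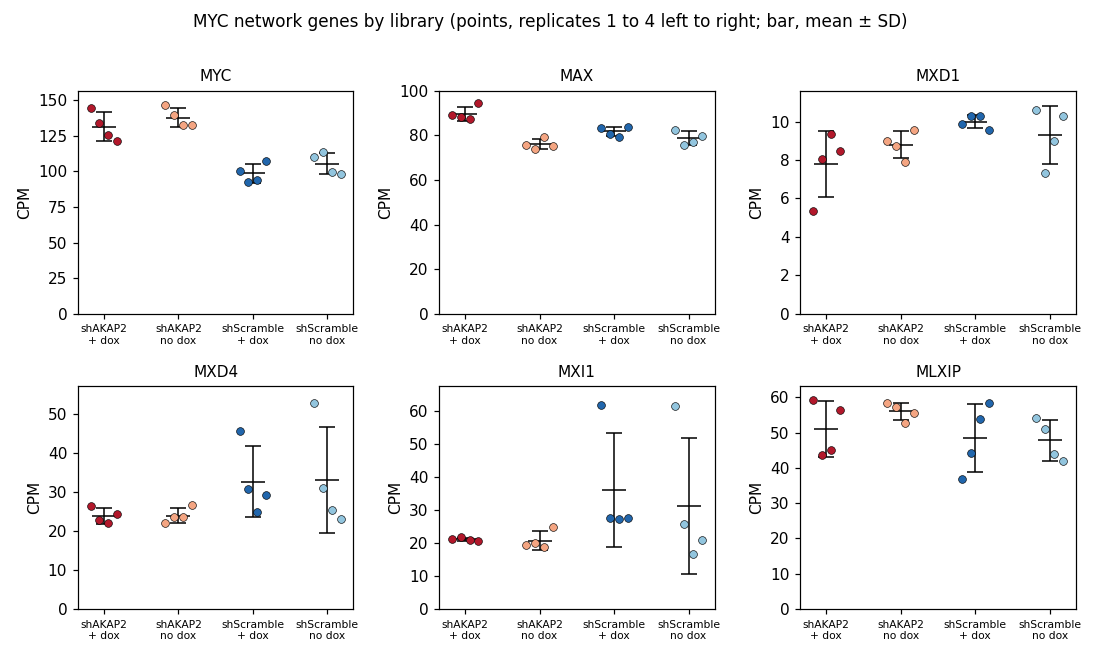
MYC network genes in CPM (y axes, from 0) for each library (points, replicates 1 to 4 from left to right) of the 4 groups, with mean ± SD as bars. The 8 shAKAP2 libraries lie above the 8 shScramble libraries for MYC, and the shScramble replicate 1 libraries lie far above the rest for MXD4 and MXI1.

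None of the repressors and the MondoA gene was called in any of the 5 comparisons, but MXI1 and MXD4 showed where single libraries weigh on the shScramble groups. MXI1 had 21.2, 21.7, 20.9 and 20.6 CPM in shAKAP2 cells with doxycycline and 19.4, 19.9, 18.8 and 24.8 CPM without it. In shScramble cells it had 61.9, 27.6, 27.4 and 27.5 CPM with doxycycline and 61.5, 25.8, 16.6 and 21.1 CPM without it. The first value of each shScramble group is replicate 1. MXD4 had 26.4, 22.7, 21.9 and 24.2 CPM in shAKAP2 cells with doxycycline and 21.9, 23.5, 23.6 and 26.6 CPM without it. In shScramble cells MXD4 had 45.7, 30.6, 24.9 and 29.2 CPM with doxycycline and 52.8, 31.0, 25.4 and 23.2 CPM without it, again highest in replicate 1. Fits without both shScramble replicate 1 libraries were made because these libraries stood apart in these same data. Their adjusted p-values, here and below, are therefore descriptive only. Without both shScramble replicate 1 libraries, MXI1 was lower in shAKAP2 than in shScramble cells with doxycycline (log2 -0.39, SE 0.11, adjusted p = 0.00452), and so was MXD4 (log2 -0.25, SE 0.1, adjusted p = 0.0406). Without the same libraries MXI1 also rose with doxycycline in shScramble cells (log2 0.39, SE 0.119, adjusted p = 0.0454). MXD1 had 5.35, 8.06, 9.36 and 8.46 CPM in shAKAP2 cells with doxycycline, against 8.99, 8.72, 7.88 and 9.55 CPM without it. In shScramble cells MXD1 had 9.86, 10.3, 10.3 and 9.57 CPM with doxycycline, against 10.6, 7.30, 9.01 and 10.3 CPM without it. The lowest MXD1 value was that of shAKAP2 replicate 1 with doxycycline. MLXIP had 59.1, 43.7, 45.03 and 56.5 CPM in shAKAP2 cells with doxycycline, against 58.4, 57.2, 52.9 and 55.5 CPM without it. In shScramble cells MLXIP had 36.8, 44.3, 53.9 and 58.3 CPM with doxycycline, against 54.1, 50.98, 44 and 42.1 CPM without it. For both genes the groups of a line overlapped.

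With doxycycline in shAKAP2 cells, where the AKAP2 hairpin is induced, 7 members were higher and 1 was lower, or 17.5% and 2.5%. Among all genes tested, 13.1% were higher and 15.2% lower, so the share called in either direction was 20% of members and 28.3% of all genes. The median log2 change of the members was 0.041, beside 0.002 for all genes. The called members were ODC1, FBL, RRP9, NOB1, WDR12, POLR1C and MAX, which rose, and GNL3, which fell. The other 32 members had log2 changes between -0.33 and 0.35. In 11 members all 4 doxycycline libraries lay above the untreated ones, and in 2, GNL3 and PA2G4, below, arrangements found in 18.4% and 18.1% of all genes. The counts depended on the fit: with only the 2 shAKAP2 groups 15 members were higher and 2 lower, where 20.3% of all genes were higher and 20.5% lower. Without untreated shAKAP2 replicate 4, 4 were higher, where 10.6% of all genes were higher.

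ODC1, the rate-limiting enzyme of polyamine synthesis, had the largest change of the 40 genes. It had 559.0, 600.7, 618.6 and 557.4 CPM in shAKAP2 cells with doxycycline, against 286.0, 291.3, 280.2 and 250.7 CPM without it. The groups were far apart, and the increase was 2.11-fold (log2 1.08, SE 0.232, adjusted p = 0.00301). In shScramble cells ODC1 had 117.9, 203.0, 239.9 and 191.1 CPM with doxycycline, against 104.2, 195.1, 253.7 and 221.3 CPM without it. These groups overlapped throughout, with replicate 1 lowest in both (log2 -0.04, adjusted p = 0.986). The lines' doxycycline effects on ODC1 differed by a log2 of 1.12 (SE 0.326, adjusted p = 0.0291). That call was lost under 6 of 23 alternatives, with adjusted p-values up to 0.0759: without the filter on low counts, and without shAKAP2 replicate 3 with doxycycline, untreated shAKAP2 replicate 4, shScramble replicate 4 with doxycycline, or untreated shScramble replicate 3 or 4. SRM, spermidine synthase, is the next enzyme of the pathway and averaged 112 ± 7.23 CPM with doxycycline and 98.9 ± 7.03 CPM without it in shAKAP2 cells, which did not pass the test (log2 0.18, SE 0.114, adjusted p = 0.256).

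FBL encodes fibrillarin, the box C/D snoRNP enzyme that methylates ribosomal RNA. It had 331.1, 348.3, 327.4 and 335.0 CPM in shAKAP2 cells with doxycycline, against 241.2, 258.9, 252.2 and 239.3 CPM without it. All 4 induced libraries stood above the rest, a 1.35-fold increase (log2 0.44, SE 0.082, adjusted p = 0.000405). In shScramble cells FBL had 179.3, 214.7, 214.4 and 215.1 CPM with doxycycline, against 175.3, 209.2, 242.4 and 226.4 CPM without it, and the groups overlapped. The doxycycline effect on FBL differed between the lines by a log2 of 0.49 (SE 0.116, adjusted p = 0.00562), a call kept under all 23 alternatives tried. Its partners in the same particle, NOP56 and NOP58, did not pass the test: NOP56 averaged 204 ± 18.9 CPM with doxycycline and 197 ± 12.2 CPM without it in shAKAP2 cells, and NOP58 109 ± 3.89 and 118 ± 2.83 CPM in the same order.

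In the box H/ACA particle, whose enzyme dyskerin (DKC1) makes pseudouridine, no member was called for doxycycline in shAKAP2 cells. NHP2, a core protein of the particle, had 86.9, 90.1, 99.0 and 87.6 CPM with doxycycline, against 82.99, 81.8, 84.7 and 79.6 CPM without it. The groups did not overlap, but the log2 difference of 0.14 (SE 0.083) had an adjusted p of 0.215. In shScramble cells NHP2 had 81.5, 78.1, 73.5 and 71.8 CPM with doxycycline, against 72.3, 83.9, 99.2 and 95.5 CPM without it, and the groups overlapped (log2 -0.20, SE 0.083, adjusted p = 0.417). The difference between these effects passed the test (log2 0.35, SE 0.118, adjusted p = 0.0465), but was lost under 16 of 23 alternatives, with adjusted p-values up to 0.109. These were limma-voom, no filter, a replicate block, and the removal of any 1 library other than shAKAP2 replicate 1 with doxycycline or a shScramble replicate 1. NHP2 shares 27.4% of its exonic bases with RMND5B on the opposite strand, and whether counting used strand is not given in the sources used here. GAR1 and DKC1 had log2 changes of 0.15 and 0.085 with doxycycline in shAKAP2 cells.

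**Figure D2:**
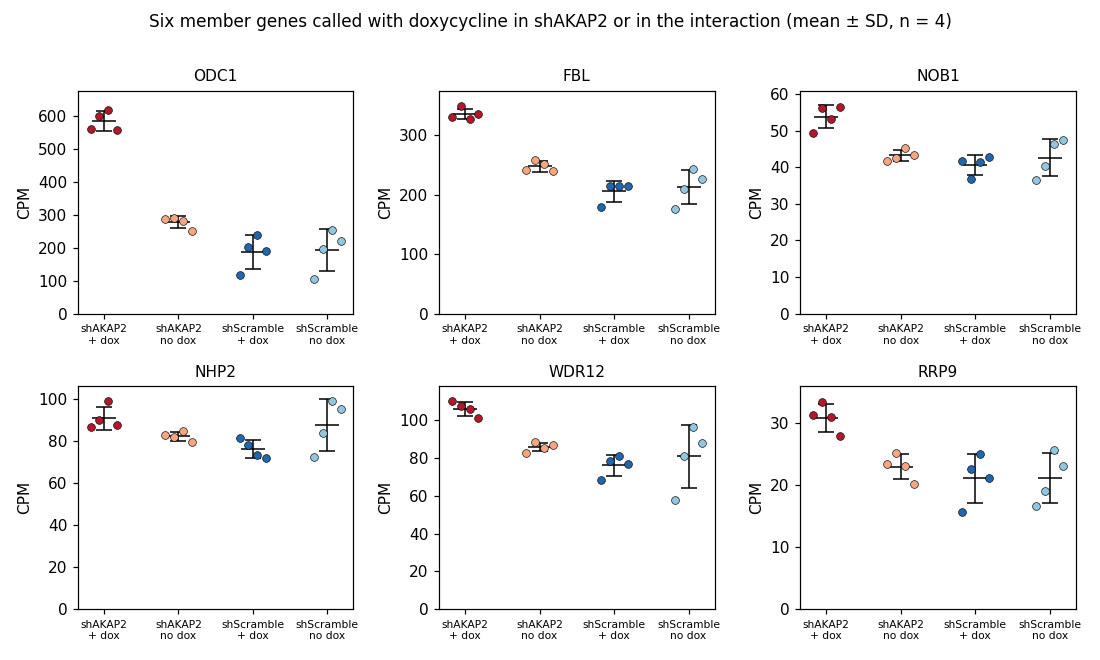
CPM (y axes, from 0) of ODC1, FBL, NOB1, NHP2, WDR12 and RRP9 in each library (points, replicates 1 to 4 from left to right) of the 4 groups, with mean ± SD as bars. In shAKAP2 cells the doxycycline libraries lie above the untreated ones for all 6 genes, while the shScramble groups overlap.

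Of the abundant nucleolar proteins and nucleolar GTPases, GNL3 was the only called member, and it fell. GNL3 encodes nucleostemin, a GTPase of the nucleolus. It had 155.5, 175.7, 183.8 and 164.5 CPM in shAKAP2 cells with doxycycline, against 191.5, 209.4, 206.3 and 193.5 CPM without it. The groups did not overlap (log2 -0.24, SE 0.086, adjusted p = 0.0445). In shScramble cells GNL3 had 159.4, 172.6, 161.8 and 153.7 CPM with doxycycline, against 149, 180.6, 208.9 and 202.6 CPM without it, a log2 difference of -0.20 that did not pass (adjusted p = 0.472), and the 2 effects differed by -0.042 (SE 0.121, adjusted p = 0.866). The call in shAKAP2 cells was lost when any 1 of 9 libraries was left out: any untreated shAKAP2 library, shAKAP2 replicates 1, 2 or 4 with doxycycline, shScramble replicate 3 with doxycycline, or untreated shScramble replicate 2. Adjusted p-values reached 0.129. NOLC1, a chaperone of snoRNPs, had 382 ± 11.54 CPM with doxycycline and 313 ± 16.2 CPM without it, with no overlap, and an adjusted p of 0.069. NOLC1 was called higher with only the 2 groups, with either replicate block, without either shScramble replicate 1 library and without both (log2 0.28, SE 0.045, adjusted p = 5.02e-06). NCL, NPM1, LYAR and GNL3L were not called, with log2 changes between 0.002 and 0.27.

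WDR12 was the only 60S assembly factor of 10 that was called. With PES1 and BOP1 it forms the PeBoW complex, which processes the precursor of the large subunit's RNA. It had 110, 107.7, 105.9 and 101.0 CPM in shAKAP2 cells with doxycycline, against 82.8, 88.3, 85.4 and 86.8 CPM without it, and the groups did not overlap (log2 0.31, SE 0.105, adjusted p = 0.0346). In shScramble cells WDR12 had 68.1, 78.4, 81.3 and 76.9 CPM with doxycycline, against 57.9, 81.3, 96.5 and 88.1 CPM without it, and the groups overlapped. The difference between the 2 effects on WDR12 did not pass (log2 0.39, SE 0.149, adjusted p = 0.0759). The call in shAKAP2 cells was lost under 7 of 24 alternatives, each the removal of 1 shAKAP2 library other than replicate 4 with doxycycline, with adjusted p-values up to 0.0847. Its partners in the complex were not called: PES1 had a log2 change of 0.014 (SE 0.082) and BOP1 of 0.019 (SE 0.192). PPAN, another 60S factor, had a log2 change of 0.35 that did not pass (adjusted p = 0.0694) and shares 59.8% of its exonic bases with P2RY11 and a readthrough gene.

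Of 7 genes of 40S assembly, RRP9 and NOB1 rose. RRP9 encodes a protein of the U3 snoRNP, which guides early cleavages of the precursor. It had 31.3, 33.4, 31.0 and 27.9 CPM in shAKAP2 cells with doxycycline, against 23.4, 25.2, 23.2 and 20.3 CPM without it (log2 0.43, SE 0.135, adjusted p = 0.0215). The call was lost without shAKAP2 replicate 2 with doxycycline or without untreated replicate 4. In shScramble cells RRP9 had 15.67, 22.6, 25 and 21.2 CPM with doxycycline, against 16.6, 19.1, 25.7 and 23.0 CPM without it, and the groups overlapped. The difference between the 2 effects on RRP9 did not pass (log2 0.425, SE 0.191, adjusted p = 0.139).

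NOB1 is the endonuclease that makes the final cut of 18S RNA. It had 49.4, 56.0, 53.3 and 56.4 CPM in shAKAP2 cells with doxycycline, against 41.6, 42.6, 45.2 and 43.4 CPM without it, and the groups did not overlap (log2 0.32, SE 0.083, adjusted p = 0.00684). In shScramble cells NOB1 had 41.7, 36.8, 41.4 and 42.8 CPM with doxycycline, against 36.6, 40.3, 46.2 and 47.5 CPM without it. The difference between the effects was 0.39 (SE 0.118, adjusted p = 0.0279), and it was lost under 8 of 23 alternatives with adjusted p-values up to 0.0696. These were no filter, and the removal of shAKAP2 replicate 2 or 4 with doxycycline, untreated shAKAP2 replicate 1 or 2, shScramble replicate 2 with doxycycline, or untreated shScramble replicate 3 or 4. NOB1 shares 20.2% of its exonic bases with a gene on the opposite strand. UTP20, a large scaffold of the 40S processome, had the lowest log2 change of the 40 genes at -0.33 (SE 0.209, adjusted p = 0.275).

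Among the RNA polymerase I subunits, POLR1C, which is shared with RNA polymerase III, had 60.03, 60.5, 69.5 and 59.5 CPM in shAKAP2 cells with doxycycline, against 50.5, 51.5, 53.3 and 48.6 CPM without it. The groups were separate (log2 0.29, SE 0.106, adjusted p = 0.0446). In shScramble cells POLR1C had 47.5, 50.9, 50.98 and 45.9 CPM with doxycycline, against 38.7, 48.2, 61.4 and 58.1 CPM without it, which overlapped. The difference between the 2 effects on POLR1C did not pass (log2 0.37, SE 0.15, adjusted p = 0.097). The call in shAKAP2 cells was lost in 10 of 24 alternatives, without any 1 shAKAP2 library or either shScramble replicate 2, with adjusted p-values up to 0.148. POLR1C shares 18.2% of its exonic bases with genes on the opposite strand. The 2 largest subunits, POLR1A and POLR1B, had log2 changes of -0.034 and 0.15 and were not called.

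**Figure D3:**
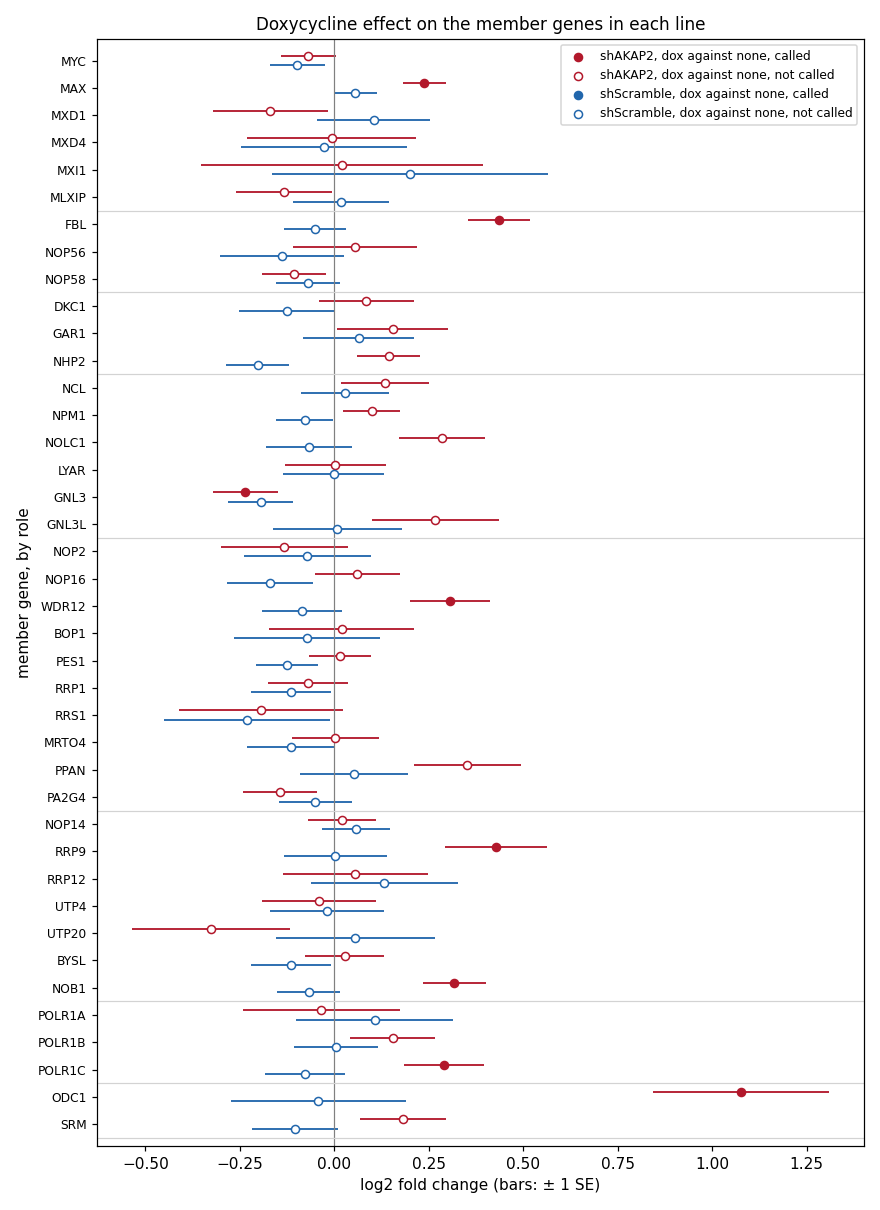
Log2 fold change of doxycycline against none (x axis; bars, ± 1 SE) for each member gene, in shAKAP2 cells (red, upper point) and shScramble cells (blue, lower point), filled where called. The 8 filled points are all in shAKAP2 cells, with ODC1 at 1.08, and no shScramble point is filled.

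In shScramble cells doxycycline called 0 of the 40 members in either direction, where 0.559% of all genes were higher and 0.52% lower (1.08% together). The groups overlapped for all 40, while 2.29% of all genes had the doxycycline libraries all above and 2.15% all below. DESeq2 and limma-voom also called 0, and 2 members, NHP2 and GNL3, had an unadjusted p under 0.05. The median log2 change of the members was -0.059, and 26 of 40 had a negative sign. Without both replicate 1 libraries NHP2 was lower (log2 -0.32, SE 0.068, adjusted p = 0.00334), and so was GNL3 (log2 -0.28, SE 0.064, adjusted p = 0.00665). Background shares in that fit were 3.79% higher and 2.66% lower.

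The difference between the lines' doxycycline effects called 4 members higher, FBL, ODC1, NOB1 and NHP2, and 0 lower. That is 10% of members, while 7.53% of all genes had a higher and 10.5% a lower difference, 18% together. The count was 12 without shScramble replicate 1 in the untreated group, where 10.4% of all genes were higher. It was 1 without replicate 3 or replicate 4 of that group, where 6.11% and 6.32% of all genes were higher. It was 2 without shAKAP2 replicate 2, 3 or 4 with doxycycline, untreated shAKAP2 replicate 1, 2 or 4, or shScramble replicate 2 or 4 with doxycycline. In those fits 5.53% to 6.28% of all genes were higher. Without both shScramble replicate 1 libraries it was 12, with a background of 14.5% higher.

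The larger difference lay between the lines. With doxycycline 21 of the 40 members (52.5%) were higher in shAKAP2 than in shScramble cells and 0 were lower, while 18.7% of all genes were higher and 21.5% lower, 40.2% together. The median log2 difference was 0.34 over the members and -0.01 over all genes, and 36 of 40 members had a positive sign. The members called were MYC, FBL, GAR1, NHP2, 4 of 6 abundant nucleolar proteins and GTPases (NCL, NPM1, NOLC1, GNL3L), 5 of 10 60S factors (NOP16, WDR12, PES1, MRTO4, PPAN), 4 of 7 40S factors (RRP9, RRP12, BYSL, NOB1), POLR1B, POLR1C, ODC1 and SRM. In 24 members, the 21 among them, the shAKAP2 libraries lay entirely above the shScramble libraries, and in 2, MXD1 and MXI1, entirely below; 18.2% and 19.6% of all genes were so arranged. Of the 7 members called for a rise with doxycycline in shAKAP2 cells, only MAX was not called here (log2 0.13, SE 0.058, adjusted p = 0.0745).

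The members with the smallest p were FBL, NOLC1, ODC1, MYC and NPM1. FBL averaged 335 ± 9.13 CPM in shAKAP2 cells with doxycycline and 206 ± 17.7 CPM in shScramble cells with it (log2 0.70, SE 0.082, adjusted p = 1.09e-06). NOLC1 averaged 382 ± 11.54 and 233 ± 44.4 CPM in the same order (log2 0.71, SE 0.114, adjusted p = 5.99e-05). ODC1 had the largest difference, 584 ± 30.6 CPM in shAKAP2 and 188 ± 51.1 CPM in shScramble cells, or 3.11-fold (log2 1.64, SE 0.235, adjusted p = 7.49e-05). The 2 most abundant members shared the direction. NPM1 averaged 2476 ± 49.3 CPM in shAKAP2 and 1918 ± 114 CPM in shScramble cells (log2 0.37, SE 0.076). NCL averaged 1337 ± 78.5 CPM in shAKAP2 and 922 ± 189 CPM in shScramble cells (log2 0.54, SE 0.117). The polyamine enzyme SRM averaged 112 ± 7.23 CPM in shAKAP2 and 77.98 ± 13.2 CPM in shScramble cells (log2 0.52, SE 0.115). GNL3L, a paralogue of nucleostemin, averaged 29.1 ± 2.99 CPM in shAKAP2 and 17.4 ± 5.42 CPM in shScramble cells (log2 0.74, SE 0.171). Of the 21 calls, 18 held under all 23 alternatives tried, and NHP2, RRP12 and BYSL lost theirs under 2, 5 and 6. NHP2 lost it without shAKAP2 replicate 3 or shScramble replicate 4 with doxycycline. RRP12 lost it with no filter, with only these groups, and without shAKAP2 replicate 1 or shScramble replicate 1 or 2. BYSL lost it without any 1 shAKAP2 library with doxycycline or shScramble replicate 1 or 2.

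Part of the line difference was present without doxycycline. There 7 members (17.5%) were higher in untreated shAKAP2 than in untreated shScramble cells and 0 were lower, against 8.65% higher and 9.31% lower over all genes, 18% together. In 10 members all shAKAP2 libraries lay above and in 0 below, beside 13.3% and 12.2% of all genes. The 7 were MYC, GAR1, NCL, NOLC1, RRP12, UTP20 and POLR1B. UTP20 had the largest log2 difference at 0.70 (SE 0.21, adjusted p = 0.0322), with 77.6 ± 4.79 CPM in shAKAP2 and 47.8 ± 9.49 CPM in shScramble cells. RRP12, an export factor of the small subunit, had 36.98 ± 3.89 CPM in shAKAP2 and 24.02 ± 5.08 CPM in shScramble cells (log2 0.62, SE 0.194, adjusted p = 0.0352). The count depended on single libraries. It was 1 without untreated shScramble replicate 1 or untreated shAKAP2 replicate 2, where 7.75% and 5.17% of all genes were higher. It was 2 without untreated shAKAP2 replicate 1 or 3 or untreated shScramble replicate 2, beside 4.78%, 6.16% and 6.48% of all genes. It was 14 without shScramble replicate 1 with doxycycline, beside 12.6% of all genes. MYC was the member called in every one of those fits. Over both conditions, 5 members had all 8 shAKAP2 libraries above all 8 shScramble libraries, MYC, GAR1, NCL, NOLC1 and POLR1B, an arrangement found in 3.75% of all genes. The opposite arrangement held for 0 members and 4.36% of all genes.

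**Figure D4:**
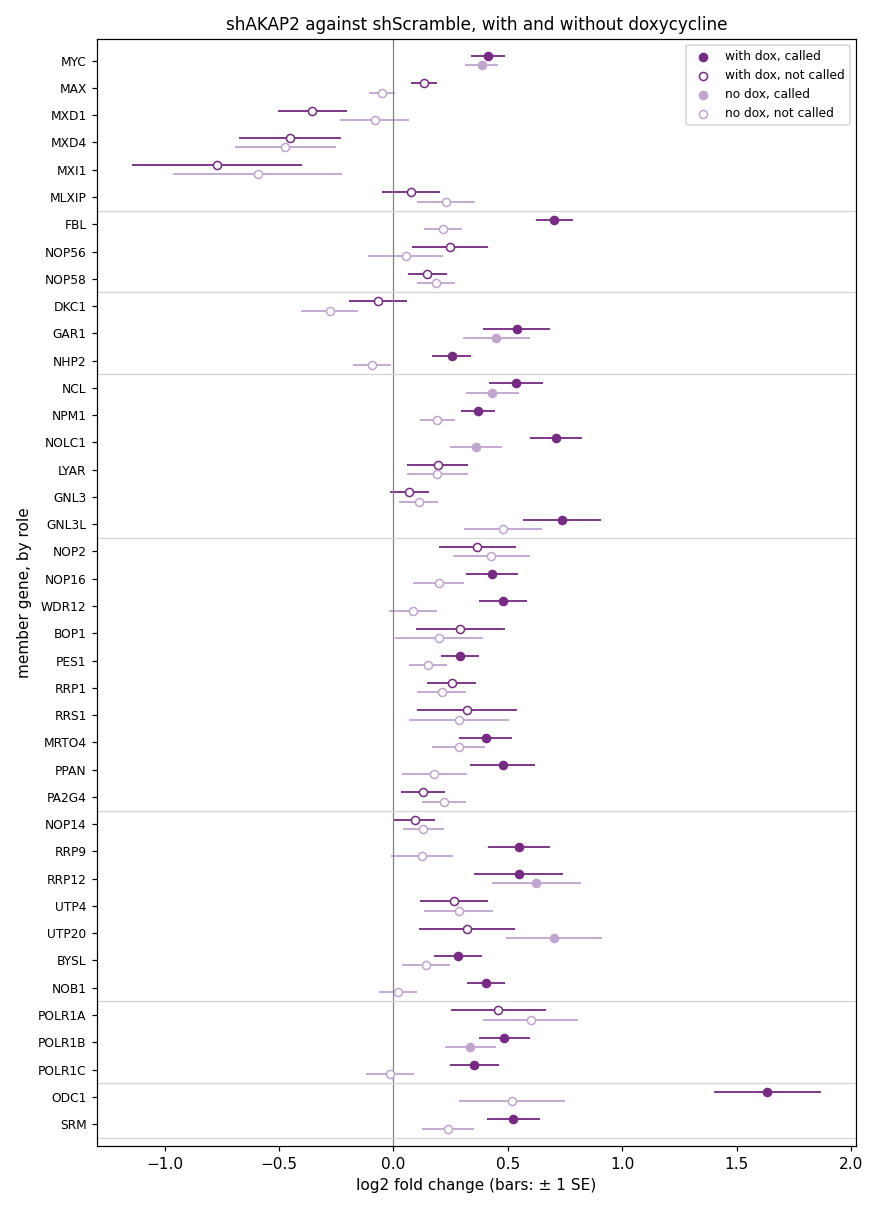
Log2 fold change of shAKAP2 against shScramble (x axis; bars, ± 1 SE) for each member gene, with doxycycline (dark purple, upper point) and without it (light purple, lower point), filled where called. With doxycycline 21 points are filled and without it 7, all to the right of 0. MXD1, MXD4, MXI1 and DKC1 lie to the left in both conditions, and MAX, NHP2 and POLR1C without doxycycline, all open.

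Across libraries the ribosome biogenesis members were lowest in the shScramble replicate 1 libraries. Measured as the median over the 32 genes of each gene's log2 deviation from its 16-library mean, shScramble replicate 1 stood at -0.46 with doxycycline and -0.52 without it. The other shScramble libraries lay between -0.13 and 0.12, and the shAKAP2 libraries between 0.062 and 0.23. For 31 of the 32 genes the lowest of all 16 libraries was 1 of those 2 shScramble replicate 1 libraries, which held for 25.4% of all genes tested; NHP2 was the exception. Summed over the 32 genes, replicate 1 had 4538 CPM with doxycycline and 4529 CPM without it, while the other shScramble libraries had between 5595 and 6378 CPM. MXI1 and MXD4 were highest in the same 2 libraries.

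Marker levels were compared as well. The summed level of 12 blood cell markers was 576 and 608 CPM in the 2 shScramble replicate 1 libraries, the highest of their groups. Group medians were 96.0 CPM in shAKAP2 cells with doxycycline and 175 CPM without it, against 379 CPM in shScramble cells with doxycycline and 293 CPM without it. Of the 12 genes, CD74 and LAPTM5 made up most of the sum, and CD3E had 1 count in the whole series. Summed levels of 9 fibroblast markers ran between 19.6 and 21.8 CPM in shAKAP2 cells with doxycycline and 21.6 and 33.6 CPM without it. In shScramble cells they ran between 46.7 and 70.5 CPM with doxycycline and 25.0 and 46.7 CPM without it. COL1A2 and PDGFRB made up most of the shScramble sums. By group mean, COL1A1 was higher in shAKAP2 cells in both conditions, and COL3A1, PDGFRA, DCN, FAP and THY1 were higher there without doxycycline only. The summed level of the 7 epithelial or luminal markers ran between 1080 and 1208 CPM in shAKAP2 cells with doxycycline and 903 and 929 CPM without it, and between 915 and 1257 CPM in shScramble cells with doxycycline and 818 and 1065 CPM without it, with replicate 1 highest in both shScramble groups. For 7 mesenchymal markers the sums ran between 6053 and 6363 CPM in shAKAP2 cells with doxycycline and 6815 and 7173 CPM without it, and between 5769 and 6729 CPM in shScramble cells with doxycycline and 5948 and 6154 CPM without it. Mitochondrially encoded genes took 2.97% of counts in shScramble replicate 1 with doxycycline, within its group's range, and 3.62% without it, the highest of its group, while the group medians were 1.56% in shAKAP2 cells with doxycycline, 2.13% without it, 2.91% in shScramble cells with doxycycline and 2.73% without it. The part of these measures in the line differences and in the doxycycline effects was not tested.

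Without both shScramble replicate 1 libraries the median line difference was smaller in both conditions. Because the exclusion was chosen from these same data, calls and adjusted p-values in this fit are descriptive only. With doxycycline 21 members were higher and 3, MXI1, MXD4 and DKC1, were lower in shAKAP2 cells, where 21.4% of all genes were higher and 22.7% lower. The median log2 difference of the members was then 0.25, compared with 0.34 with all libraries. FBL differed by 0.64 (SE 0.051), ODC1 by 1.46 (SE 0.09) and MYC by 0.42 (SE 0.066). Without doxycycline 13 members were higher and 2, DKC1 and NHP2, were lower, with a background of 13.7% and 13%, and the members' median log2 difference was 0.1, compared with 0.20 with all libraries. DKC1 was lower in shAKAP2 than in shScramble cells by a log2 of -0.17 with doxycycline (SE 0.055, adjusted p = 0.00933) and -0.41 without it (SE 0.055, adjusted p = 6.96e-07). Doxycycline in shAKAP2 cells then called 13 members higher and 2 lower, GNL3 and PA2G4, beside 19.5% and 20.3% of all genes.

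**Figure D5:**
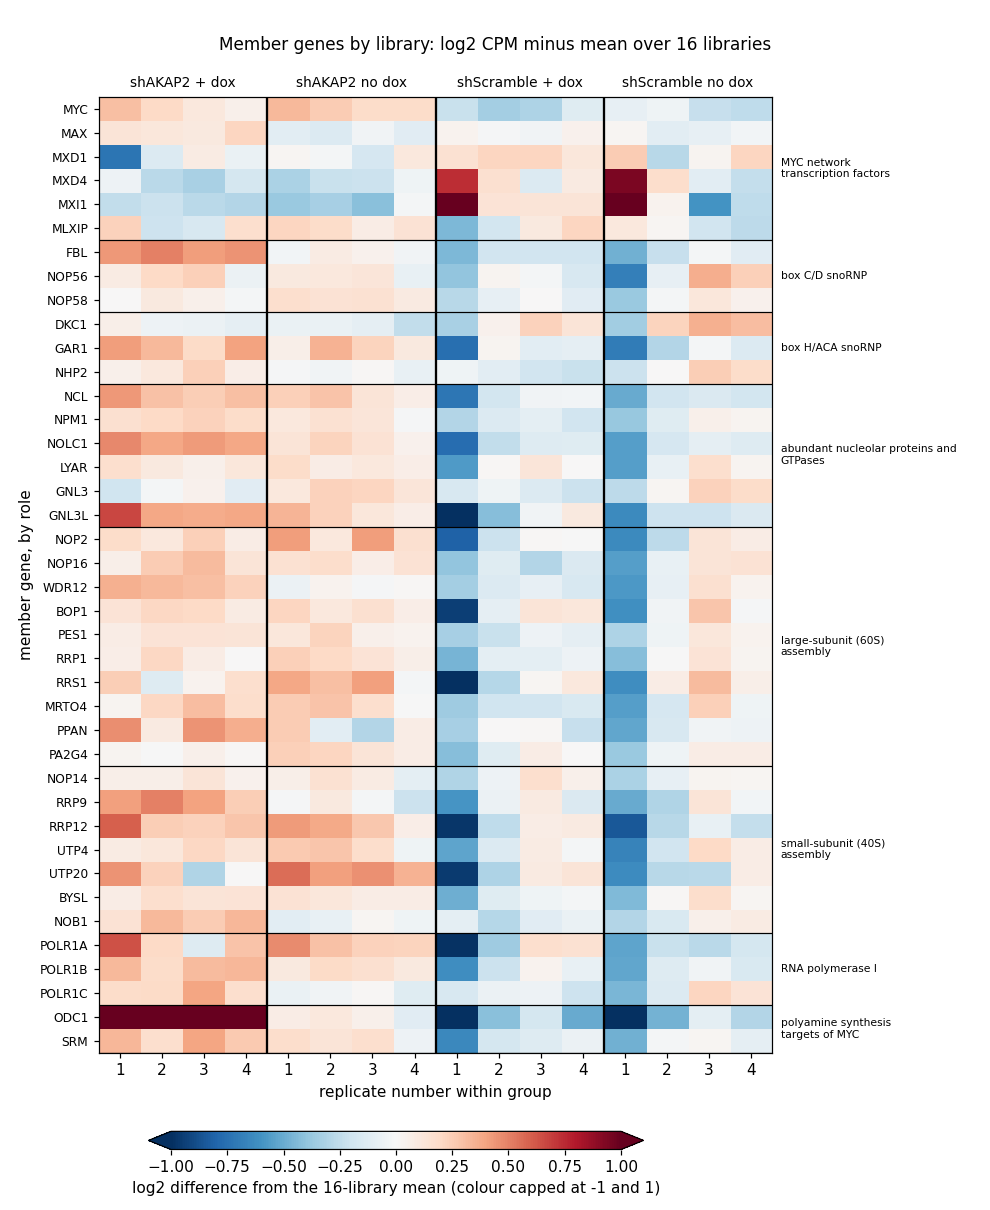
Log2 CPM minus the mean over 16 libraries (colour, capped at -1 and 1) for the 40 member genes (vertical axis, by role) in each library (horizontal axis, grouped). The shScramble replicate 1 libraries are blue for the ribosome biogenesis genes and red for MXD4 and MXI1, and ODC1 is dark red in all 4 shAKAP2 libraries with doxycycline.

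Genes of the same pathways outside the 40 were counted from lists written from general knowledge. Of 20 other genes of the MYC network, 3 rose and 3 fell with doxycycline in shAKAP2 cells, shares near the 13.1% and 15.2% of all genes. BIN1, a MYC-interacting tumour suppressor, averaged 37.7 CPM with doxycycline and 71.3 CPM without it (log2 -0.92, SE 0.068, adjusted p = 2.77e-09). In shScramble cells BIN1 stood at 70.8 CPM with doxycycline and 71.1 CPM without it, and the effects differed by -0.91 (SE 0.095, adjusted p = 8.64e-07). The corepressor SIN3B, which MXD proteins recruit, also fell (log2 -0.38, SE 0.078), and the acetyltransferase KAT5 and the kinase PIM1 rose (log2 0.38 and 0.34).

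Of 50 further 40S assembly genes, 8 rose and 1 fell with doxycycline in shAKAP2 cells, and of 56 further 60S genes 9 rose and 8 fell, beside 13.1% higher and 15.2% lower over all genes. ABT1 led the 40S list by p (log2 0.53, SE 0.078, adjusted p = 3.25e-05). The 60S list was led by a fall of the helicase DDX55 (log2 -0.51, SE 0.106) and a rise of RRP15 (log2 0.39, SE 0.087). Of 19 further RNA polymerase I genes 7 rose and 1 fell, of 18 exosome and nuclear RNA processing genes 4 rose and 1 fell, and of 14 further snoRNP genes 4 rose and 1 fell. POLR2K, a subunit common to the 3 polymerases, rose by a log2 of 0.34 (SE 0.077), the exonuclease ISG20L2 by 0.48 (SE 0.117) and ZNHIT6, a box C/D assembly factor, by 0.49 (SE 0.08). The medians of these 5 lists lay between 0.046 and 0.18. NOP10, the fourth core protein of the H/ACA particle beside DKC1, GAR1 and NHP2, fell by 0.24 (SE 0.089, adjusted p = 0.0453). The lists can share genes, and NOP10 was counted in both the 60S and the snoRNP list, also between the lines.

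Other MYC targets, 71 genes of metabolism, translation and growth, had 10 higher and 9 lower members with doxycycline in shAKAP2 cells and a median log2 change of 0.039, shares near those of all genes (13.1% and 15.2%). PAICS, a purine synthesis enzyme, had the smallest p and averaged 205 CPM with doxycycline and 546 CPM without it (log2 -1.41, SE 0.071, adjusted p = 7.63e-12), against 430 and 466 CPM in shScramble cells with and without doxycycline. The translation factor gene EIF2S1 fell as well (log2 -0.54, SE 0.082). Between the lines with doxycycline, 32 of the 71 were higher and 10 lower in shAKAP2 cells, as were 24 and 3 of the 50 40S genes, 26 and 6 of the 56 60S genes, 6 and 2 of the 19 RNA polymerase I genes, 7 and 1 of the 18 exosome genes and 5 and 1 of the 14 snoRNP genes. Over all genes 18.7% were higher and 21.5% lower. SURF6, a nucleolar factor of the 60S list, averaged 49.9 CPM in shAKAP2 and 30.1 CPM in shScramble cells (log2 0.73, SE 0.107, adjusted p = 1.72e-05). NOP10 went the other way, with 55.5 CPM in shAKAP2 and 82.5 CPM in shScramble cells (log2 -0.57, SE 0.089, adjusted p = 3.3e-05).

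The 7-letter word GAACACA, known from earlier results on these data to be frequent in 3′ untranslated regions (3′ UTRs) of genes that fell with the hairpin, was counted in the members in GENCODE 29. It stood in the 3′ UTR of 2 of the 40, MLXIP and POLR1A, neither of them called with doxycycline in shAKAP2 cells. Among genes tested with an annotated 3′ UTR, 33.1% of the 2170 that fell, 6.53% of the 1915 that rose and 14.1% of all 12832 held it. Because the word was known from these same data, these shares are descriptive and no test of it. The length of the 3′ UTRs was not taken into account.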

How the data were processed

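The authors deposited one table of raw counts, whole numbers of reads per gene with Ensembl identifiers and symbols, for 16 libraries of polyadenylated RNA. The submitters' processing notes name GRCh38 as the genome build, with Subread 1.5.2, featureCounts and STAR 2.5.2b. Neither annotation release nor strand setting is given in the sources used here, so overlapping genes are uncertain. Beside the members named above, these include PA2G4 (23.5% of exonic bases shared with other genes), NOP16 (20%) and NOP14 (17.1%). Column names matched the labels' titles.

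Counts were analysed with edgeR 4.0.16, limma 3.58.1 and R 4.3.3: genes kept by filterByExpr (15566), TMM scaling, and a robust quasi-likelihood fit of 4 group means to all 16 libraries, leaving 12 residual degrees of freedom (biological coefficient of variation 14.4%). For 5 contrasts, p-values were adjusted by Benjamini-Hochberg over all genes tested, with a threshold of 0.05. Standard errors of log2 fold changes derive from the F statistic. Depth limits mainly low genes; every member had a mean of at least 8.97 CPM. The code was tested on simulated data.

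The 40 members, the other gene lists and the tests were chosen with earlier results of these data known. Named with values for every library were MYC, the other MYC network members and members called for doxycycline in shAKAP2 cells or for the difference between the lines' doxycycline effects; members called only between lines have group means, at most 10 by smallest p, and for other lists at most 4 by smallest p. Positions, exonic lengths, overlaps and 3′ UTRs come from GENCODE 29, and promoters from RefSeq, matched by symbol. Alternatives were RLE size factors, DESeq2 1.42.0, limma-voom, no filter, only the groups compared, replicate blocks, each library left out, and both shScramble replicate 1 libraries left out. The last was chosen from these same data.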

Additional observations from a re-analysis of the deposited data

Results flagged for a closer look

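Of 160 sets of 4 libraries (40 genes in 4 groups), 12 (7.5%) held a library whose gap to the nearest other exceeded Dixon's 95% limit; chance gives about 1 in 20. Of these, 5 were shScramble replicate 1 libraries. With doxycycline they were MXI1 at 61.9 CPM (others 27.4 to 27.6), FBL at 179 CPM (others 214 to 215) and RRP1 at 30.3 CPM (others 39.0 to 40.4). Without it they were NCL at 758 CPM (others 938 to 972) and GNL3L at 13.6 CPM (others 18.3 to 19.1).

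In shAKAP2 cells with doxycycline, replicate 1 stood apart for GNL3L at 33.6 CPM (others 27.4 to 27.8), RRP12 at 45.7 CPM (others 35.5 to 36.5) and PES1 at 96.0 CPM (others 99.9 to 100.4), replicate 2 for POLR1B at 74.7 CPM (others 82.2 to 83.1) and replicate 3 for POLR1C at 69.5 CPM (others 59.5 to 60.5). In untreated shAKAP2 cells replicate 4 stood apart for NOP56 at 179 CPM (others 201 to 205) and DKC1 at 173 CPM (others 193 to 197).

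The doxycycline effect differed between the lines, by edgeR's interaction test, for ODC1 (log2 difference 1.12), FBL (0.49), NOB1 (0.39) and NHP2 (0.35), each higher in shAKAP2 than in shScramble cells. The causes of these differences were not tested.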

How the results depend on the processing

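The 40 member calls of the 5 comparisons gave 928 values under the alternatives: 813 kept direction and call, 115 lost the call, and 0 changed sign. MYC stayed called between the lines in both conditions under all 23 alternatives, and was never called for doxycycline in either line. The counts of called members that moved by over 1.5 times were as follows. With only the groups compared, doxycycline in shAKAP2 cells gave 15 higher (7 with all groups) and 2 lower (1). The share over all genes rose to 20.3% higher and 20.5% lower. The lines with doxycycline gave 2 lower (0), beside 20.1% of all genes. Without the filter on low counts, the interaction gave 2 higher (4) and the untreated lines 2 (7). The shares higher over all genes then tested were 3.16% (7.53% with the filter) and 3.52% (8.65%). Without both shScramble replicate 1 libraries, doxycycline gave 13 higher and 2 lower in shAKAP2 cells and 1 higher and 2 lower in shScramble cells (0 and 0). The interaction then gave 12 higher, the lines with doxycycline 3 lower, and the untreated lines 13 higher and 2 lower. The shares over all genes in these fits are given above.

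Leaving out each library in turn gave 4 to 9 higher and 0 to 1 lower for doxycycline in shAKAP2 cells. Over all genes, 12.8% to 17.4% were lower in these fits. The 4 arose without untreated shAKAP2 replicate 4 and the 9 without untreated shScramble replicate 1, where 10.6% and 15.1% of all genes were higher. In shScramble cells it gave 0 higher and 0 to 2 lower (2 without untreated replicate 1, beside 1.1% of all genes). It gave 1 to 12 higher and 0 lower for the interaction, with 6.11% or 6.32% of all genes higher at 1 and 10.4% at 12. Between 8.94% and 13% of all genes were lower for the interaction. For the lines with doxycycline it gave 19 to 24 higher and 0 to 2 lower, with 16.4% to 18.2% of all genes higher at 19 and 20.6% at 24. For the untreated lines it gave 1 to 14 higher and 0 to 1 lower, with 5.17% or 7.75% of all genes higher at 1 and 12.6% at 14. The lower calls between lines appeared without untreated shScramble replicate 1 (2 and 1, beside 23% and 8.29% of all genes lower). With doxycycline, 1 also appeared without shAKAP2 replicate 3, beside 19.4% of all genes.

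Replicate numbers paired the libraries weakly and unevenly. Correlations of same-numbered deviations between doxycycline and none were -0.018 to 0.053 in shAKAP2 cells. In shScramble cells they were 0.4 for replicate 1, 0.197 for replicate 3, and 0.023 and 0.07 for replicates 2 and 4. Of the 4 libraries of a group, 3 in untreated shAKAP2 cells and 2 in each other group correlated best with their own number. A replicate block shared by the groups gave 8 higher and 1 lower for doxycycline in shAKAP2 cells, beside 13.5% of all genes higher. It gave 3 higher for the interaction and 11 higher for the untreated lines, beside 7.66% and 9.02% of all genes. A replicate block within line gave 11 higher and 3 lower for doxycycline in shAKAP2 cells, beside 17.6% and 18.8% of all genes. It gave 9 higher for the interaction, beside 11.7% of all genes. The causes of these shifts were not tested. RLE factors, DESeq2 and limma-voom moved no count by over 1.5 times.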
